A study of Mus musculus with 45 samples.

Results

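The Hoxc and Hoxd clusters each hold a row of homeobox genes, and the 10 genes at the anterior side of these rows that are described here are Hoxc4, Hoxc5, Hoxc6, Hoxc8 and Hoxc9 on chromosome 15 and Hoxd1, Hoxd3, Hoxd4, Hoxd8 and Hoxd9 on chromosome 2. They were chosen by name, as the rows of the count table whose Ensembl identifiers carry these symbols, and make up 10 of its 54532 genes. The names were picked with earlier results of these data known, so the timing and the low levels described below are no independent evidence. With retinoic acid (RA), 5 of them rose: Hoxc4, Hoxc5, Hoxd1 and Hoxd3 were higher than in untreated organoids at each of the 6 time points from 18 h on, and Hoxd8 at the 4 time points from 42 h on. Hoxc6, Hoxc8 and Hoxc9 were called higher than at day 2 from 42 h on with or without RA, except Hoxc9 at 66 h of RA. The RA calls of Hoxc8 and Hoxc9 were lost in several fits with 1 library left out. Without RA, Hoxc4 and Hoxd3 were also called higher than at day 2 from 42 h on, and Hoxc5 from 54 h on. Hoxd9 stayed below 1 CPM (counts per unit of library total, a level that can be compared between libraries) in every library, and Hoxd4 was listed at 0 throughout.

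Hox genes encode transcription factors that give cells their position along the head-to-tail axis. Genes at the 3′ end of a cluster are used early and anteriorly and those at the 5′ end later and more posteriorly, an order known as collinearity. In the neural tube RA acts through nuclear receptors that bind DNA near several 3′ Hox genes, and so raises hindbrain and anterior spinal cord Hox genes. Genes with the same number in different clusters are paralogues, copies of one ancestral gene.

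The cells were of R1, a mouse embryonic stem cell line, and were grown in Matrigel with N2B27 medium into neural tube organoids by clonal growth. All groups are wild type and share this 1 line, gel and medium. At day 2, 3 libraries were made before treatment. The other 42 libraries came from organoids that were left untreated or given 250 nM all-trans RA, and were collected 8, 18, 30, 42, 54, 66 or 78 h after day 2, with 3 biological replicates in each of the 14 combinations. The sample protocol writes the dose with a different unit and lists partly different hours, and the dose and hours of the sample titles and the design text are used here. The study calls the samples independent biological replicates without saying whether the 3 were separate dishes or seedings, so the p-values measure the spread between these libraries. RNA was taken from whole organoids, so a larger number of expressing cells and more RNA per cell cannot be told apart.

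Library totals ran from 17298632 to 39688686 counts, at which 3 counts, the smallest amount taken here as detected, are worth 0.0795 to 0.183 CPM. Some libraries stood apart. The mean of 4 genes of the Y chromosome lay at 1.22 to 3.73 CPM in 6 libraries (RA 8 h replicate 3, RA 30 h replicates 1 and 3, and the 3 untreated libraries of 30 h) and at 22.6 CPM or more in the other 39. RA 30 h replicate 2 therefore differed in this respect from the 5 libraries it is compared with. Library numbers also fell into an earlier and a later series. The later one held day 2 replicate 3, RA 30 h replicates 2 and 3, untreated 54 h replicate 3 and all libraries of 66 h and 78 h.

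Summed neural progenitor markers (Sox1, Sox2, Pax6, Nes, Hes5 and Zic1) lay at 447 to 869 CPM in the 12 untreated and 761 to 1070 CPM in the 12 RA-treated libraries from 42 h to 78 h, and each of the 6 was detected in both arms. Markers of other cell types differed between the arms in the same libraries. The sum of 5 genes listed as endoderm markers (Sox17, Foxa2, Gata6, Gata4 and Afp) was 1.98 to 3.69 CPM without and 18.7 to 29.3 CPM with RA. That of 4 lateral mesoderm markers was 0.512 to 1.68 and 2.14 to 19.2 CPM, and that of 6 simple epithelium and trophoblast-linked markers 41.6 to 53.3 and 138 to 545 CPM. Of these, Afp and Hand2 were at 3 counts or fewer in every one of these untreated libraries. Endoderm markers were already apart at 8 h and 18 h, with 2.02 to 3.98 CPM without and 7.41 to 18.7 CPM with RA. Summed forebrain and midbrain markers went from 65 to 157 CPM without RA to 3.3 to 16.7 CPM with it, and pluripotency markers from 381 to 815 CPM to 86.8 to 330 CPM. The ranges overlapped between arms for 6 paraxial and early mesoderm markers (4.5 to 12.4 CPM without and 9.41 to 38.3 CPM with RA, Msgn1 at 3 counts or fewer in both arms and Mesp1 in the RA arm) and for the hindbrain, neural crest and neuron lists, as for the neural progenitor markers. A sum does not show which gene of a list carried a difference, so the presence of a cell type is not read from it. The part of cell types in the Hox levels was not tested.

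Promoter sequences of 6 of the 10 genes were found in the RefSeq table of mouse promoters (build GRCm38.p6), those of Hoxc4, Hoxd1, Hoxd3, Hoxd4, Hoxd8 and Hoxd9, while Hoxc5, Hoxc6, Hoxc8 and Hoxc9 had no entry. They span 250 bases before to 50 after the start that RefSeq gives, which for Hoxc4, Hoxd3 and Hoxd4 lies inside the longer GENCODE gene model used for the positions below. The hexamer AGGTCA, the core that RA receptors and many other nuclear receptors bind, was searched on both strands because 5 of the genes rose with RA. It occurred in 4 of the 6 promoters, against 16.3% of all 32851 promoters of that length. Direct repeats of the hexamer with 5 or 2 bases of any kind between them, which contain the hexamer by construction, were in 0 of the 6 and in 0.00913% of all promoters each. The matched stretches follow, with the hexamer or its complement in capitals, on the plus strand of chr15:103034237-103034266 for Hoxc4 and of chr2:74711785-74711884, chr2:74721786-74721885 and chr2:74704433-74704532 for Hoxd3, Hoxd4 and Hoxd8.
Hoxc4: ggcgctgccctgTGACCTacacagactgca
Hoxd3: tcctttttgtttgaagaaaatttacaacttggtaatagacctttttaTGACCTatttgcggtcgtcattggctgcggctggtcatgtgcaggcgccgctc
Hoxd4: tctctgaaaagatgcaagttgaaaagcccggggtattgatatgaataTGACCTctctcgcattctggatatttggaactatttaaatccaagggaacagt
Hoxd8: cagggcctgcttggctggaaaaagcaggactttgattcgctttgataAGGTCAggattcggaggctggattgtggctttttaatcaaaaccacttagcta

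Of these 4 genes, Hoxc4, Hoxd3 and Hoxd8 rose with RA and Hoxd4 has no count, and Hoxd1, which also rose, held no hexamer in its window. A match of these letters is a description of the sequence and not a bound site.

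**Figure D1:**
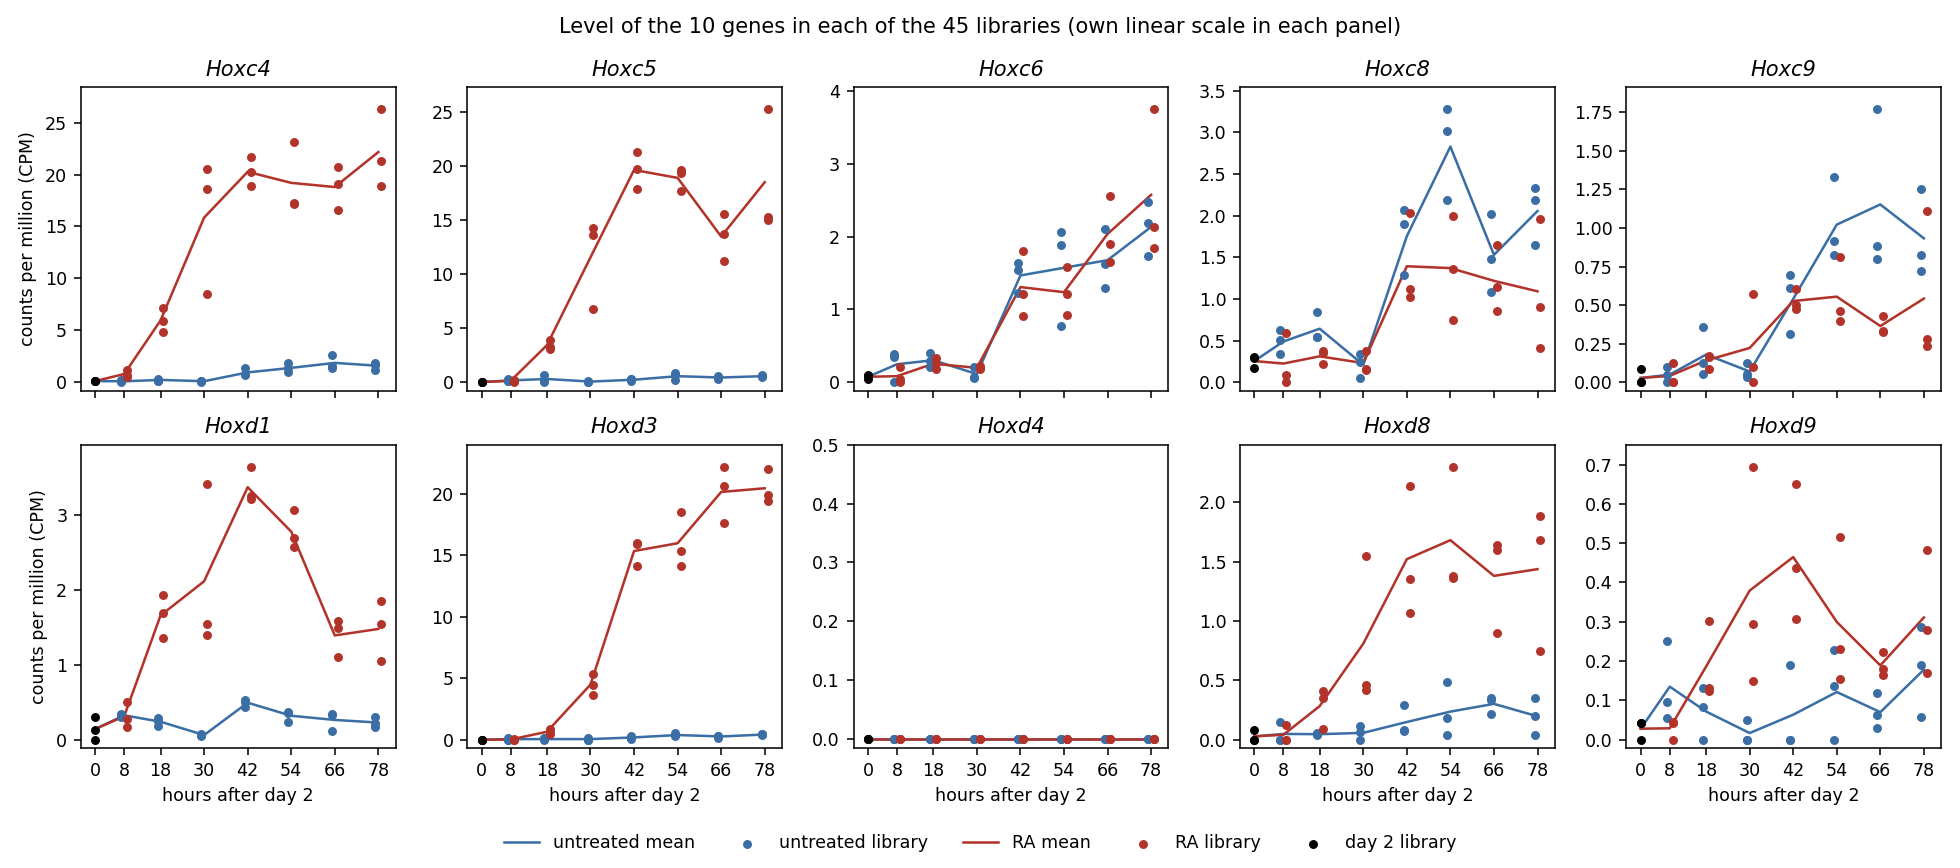
Level of each of the 10 genes in CPM, on its own linear axis, against hours after day 2. Points are single libraries (RA-treated red, untreated blue, day 2 black) and lines join the means of 3 libraries. Hoxc4, Hoxc5 and Hoxd3 climbed to highest means of 22.2, 19.6 and 20.4 CPM with RA, the means of Hoxc4 without RA reached at most 1.87 CPM, the Hoxc6 points of both arms overlapped at 42 h and 78 h, and Hoxd4 was at 0 in all 45 libraries.

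Hoxc4 (chr15:103018934-103036852, plus strand, GRCm38), the 3′-most gene of its cluster, had a highest mean level of 8.64 CPM per kb of exon in the RA arm, beside 6.36 for Hoxc5, 4.87 for Hoxd3, 1.81 for Hoxd1 and 1.07 for Hoxc6. The value for Hoxd3 is divided by all its exon bases, most of which other genes share, so its place in this order is not known. At day 2 its libraries held 0.126, 0.101 and 0.127 CPM. With RA they held 1.21, 0.683 and 0.509 CPM at 8 h, 7.12, 4.81 and 5.93 CPM at 18 h and 21.7, 20.2 and 18.9 CPM at 42 h. Without RA the values were 0.361, 0.166 and 0.159 CPM at 18 h and 0.782, 0.727 and 1.35 CPM at 42 h. Treated and untreated libraries of Hoxc4 did not overlap at any time from 8 h to 78 h. The log2 fold change of RA over untreated was 4.76 (SE 0.29, edgeR adjusted p = 3e-08) at 18 h, 4.39 (SE 0.17, adjusted p = 2e-08) at 42 h and 3.81 (SE 0.18, adjusted p = 2.5e-08) at 78 h. At 8 h the log2 fold change was 2.94 (SE 0.71, adjusted p = 0.04), short of the threshold, which is an adjusted p under 0.01 with a log2 fold change above 1 in size. Without RA 8 h replicate 3, one of the libraries low in Y-linked RNA, it was 3.15 with an adjusted p of 0.0012.

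Hoxc5 (chr15:102967443-103017429, plus strand) is the next gene of the cluster. Its day 2 libraries held 1, 0 and 1 counts. With RA the levels were 3.3, 3.94 and 3.07 CPM at 18 h and 19.8, 21.3 and 17.9 CPM at 42 h, and without RA they were 0.0451, 0.666 and 0.212 CPM and 0.274, 0.115 and 0.329 CPM. At 8 h the treated libraries (0.25, 0.0455 and 0.113 CPM) lay among the untreated ones, and from 18 h on the groups were apart. The RA effect in log2 was 3.51 (SE 0.41, adjusted p = 1.3e-05) at 18 h, 6.32 (SE 0.21, adjusted p = 5.6e-09) at 42 h and 5.00 (SE 0.26, adjusted p = 6.9e-08) at 78 h. Against day 2, where 2 counts were seen in all, the ratio of summed counts at 42 h was 663 with an exact 95% interval of 183 to 5480 that covers counting error only. In the annotation 94.6% of the Hoxc5 exon bases lie in no other gene on the same strand, and the rest are shared with Hoxc10.

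Hoxd3 (chr2:74711927-74748442, plus strand) had 0 counts in all 3 day 2 libraries. With RA it stood at 0.835, 0.493 and 0.606 CPM at 18 h, at 3.66, 5.37 and 4.41 CPM at 30 h, at 15.9, 16.0 and 14.1 CPM at 42 h and at 19.9, 19.4 and 22.0 CPM at 78 h. Untreated libraries stood at 0.0, 0.125 and 0.0265 CPM at 18 h, at 0.0782, 0.153 and 0.329 CPM at 42 h and at 0.43, 0.405 and 0.434 CPM at 78 h. Each treated library from 18 h on was above all untreated libraries of its time. The log2 fold change was 3.63 (SE 0.64, adjusted p = 3.7e-04) at 18 h, 6.29 (SE 0.24, adjusted p = 1.7e-08) at 42 h and 5.58 (SE 0.14, adjusted p = 3.6e-10) at 78 h. Against the floor of 3 counts per library at day 2, Hoxd3 was at least 114-fold higher at 42 h with RA. Only 37.7% of its exon bases lie outside other genes of its strand, and how reads of the shared bases were assigned is not given in the sources used here.

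Hoxd1 (chr2:74762980-74765142, plus strand), the 3′-most gene of the Hoxd cluster and a paralogue of the early hindbrain gene Hoxb1, rose to a low level. Its day 2 libraries held 0.126, 0.302 and 0.0 CPM. With RA the libraries held 1.93, 1.36 and 1.69 CPM at 18 h, 3.26, 3.65 and 3.21 CPM at 42 h and 1.54, 1.05 and 1.85 CPM at 78 h, and untreated libraries held 0.18, 0.25 and 0.291, then 0.508, 0.536 and 0.439, and then 0.215, 0.174 and 0.298 CPM. The treated libraries were thus above the untreated ones at all 3 times. RA raised Hoxd1 by 2.72 in log2 (SE 0.32, adjusted p = 1.5e-05) at 18 h, by 2.75 (SE 0.23, adjusted p = 3.8e-06) at 42 h and by 2.66 (SE 0.34, adjusted p = 7.6e-05) at 78 h.

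Hoxd8 (chr2:74704615-74707933, plus strand) stayed lower still, with a highest mean of 1.68 ± 0.539 CPM (SD, n = 3) at 54 h. The treated libraries held 0.352, 0.411 and 0.0866 CPM at 18 h, 2.14, 1.07 and 1.35 CPM at 42 h and 1.88, 0.748 and 1.68 CPM at 78 h. Untreated libraries held 0.0451, 0.0416 and 0.053 CPM at 18 h, 0.0782, 0.0766 and 0.293 CPM at 42 h and 0.0358, 0.203 and 0.352 CPM at 78 h. The groups were apart at 42 h and 78 h. The lowest treated and the highest untreated library of 18 h held 2 counts each, under the floor of 3 counts, and differed by scaling only. At 18 h the gene had too few counts to be tested. The log2 fold change was 3.26 (SE 0.50, adjusted p = 2.9e-04) at 42 h and 2.77 (SE 0.51, adjusted p = 9.6e-04) at 78 h.

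At 30 h the untreated libraries were low for these genes (for Hoxd1 0.0749, 0.0611 and 0.0509 CPM), and the treated libraries were uneven. Hoxc4 stood at 18.6, 8.47 and 20.5 CPM, Hoxd1 at 1.54, 3.41 and 1.4 CPM and Hoxd8 at 0.458, 1.55 and 0.417 CPM in RA replicates 1, 2 and 3. Replicate 2, the 1 library of 30 h that was not low in Y-linked RNA (mean 30.0 CPM), was the lowest for Hoxc4 and the highest for Hoxd1 and Hoxd8. The log2 fold changes were 7.28 for Hoxc4, 7.39 for Hoxc5, 4.94 for Hoxd1 and 6.39 for Hoxd3 with it, all called. They were 7.58, 7.65, 4.40 and 6.24 without it, again all called. The fits without it held only libraries low in Y-linked RNA. The Hoxd3 value rests on untreated replicate 3, which held all 3 untreated counts, and was 9.95 without it, a fitted value that against 0 counts depends on the prior count and is no bound. In summed marker levels 1 of the 3 treated libraries of 30 h was also apart from the others, with 26.8 CPM against 4.44 and 4.58 CPM for endoderm and 164 CPM against 31.3 and 35.1 CPM for simple epithelium, and the part of this in the Hox levels was not tested. The Hoxd1 call at 30 h was lost without untreated replicate 1 or 2 (edgeR adjusted p = 0.011 in both fits). For Hoxd8 the log2 fold change of 3.58 (edgeR adjusted p = 0.024) missed the threshold with that replicate, and 2.68 (adjusted p = 0.0062) passed it without. DESeq2 called Hoxd8 with all libraries (adjusted p = 0.0049). The Hoxd3 ratio of summed counts at 30 h, where untreated libraries held 3 counts in all, was 93.8 with an exact 95% interval of 31.9 to 457.

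**Figure D2:**
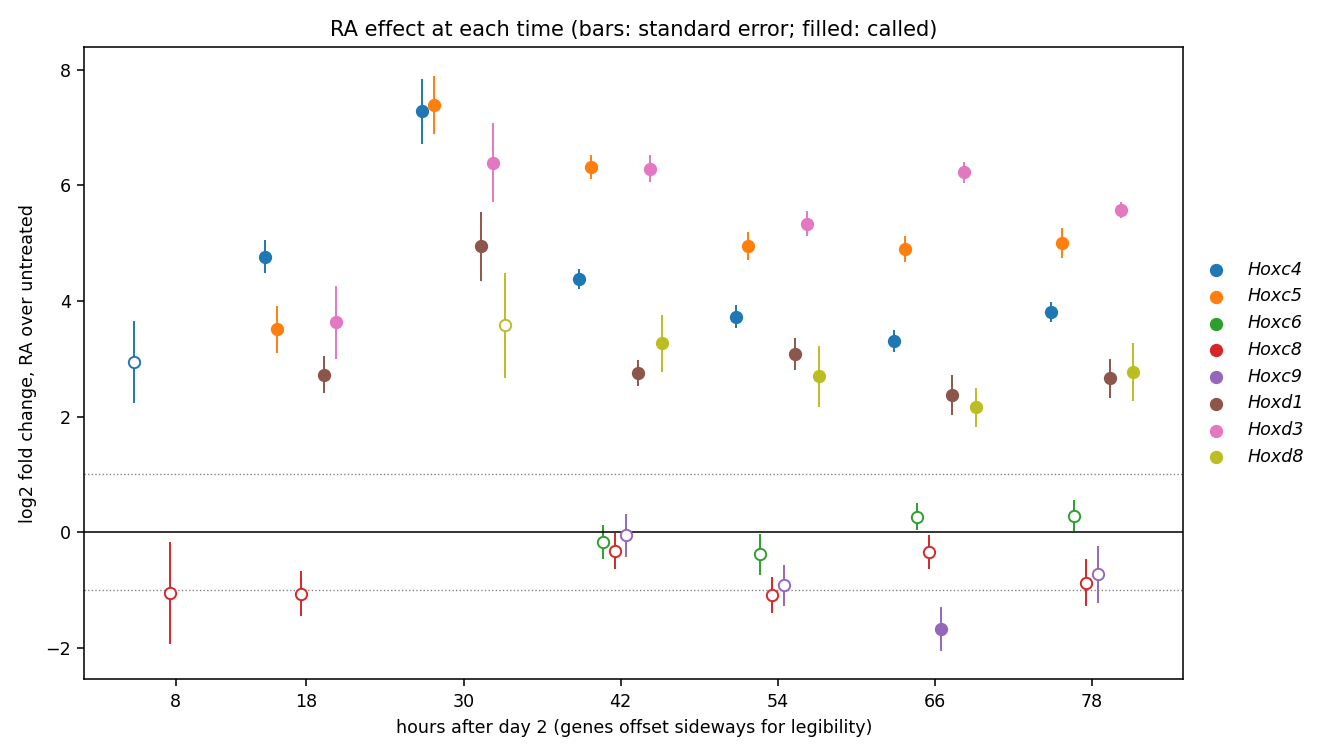
Log2 fold change of RA over untreated at each time for the 8 genes with enough counts to be tested, with standard errors as bars and dotted lines at a log2 fold change of 1 in either direction. Filled points passed an adjusted p under 0.01 and that size. Hoxc4, Hoxc5, Hoxd1 and Hoxd3 are above 2 from 18 h on, Hoxd8 joins at 42 h as a called gene, and Hoxc6, Hoxc8 and Hoxc9 lie around or below 0.

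Hoxc6 (chr15:102998257-103011881), Hoxc8 (chr15:102990607-102994111) and Hoxc9 (chr15:102976439-102985099), the more 5′ genes of the Hoxc set and all on the plus strand, were not called higher with RA where they were tested, which was from 42 h on and for Hoxc8 also at 8 h and 18 h. At 30 h, where none of the 3 was tested, Hoxc9 held 21 counts with RA, 18 of them in replicate 2, and 4 without, a ratio of 3.44 with an exact 95% interval of 1.16 to 13.8 for counting error only, and its groups overlapped. Hoxc6 stood at 1.64, 1.22 and 1.54 CPM without and 1.21, 1.8 and 0.911 CPM with RA at 42 h, and at 2.19, 1.74 and 2.47 CPM without and 3.75, 1.84 and 2.13 CPM with RA at 78 h. These groups overlapped, with log2 fold changes of -0.17 (SE 0.29, adjusted p = 0.66) and 0.29 (SE 0.27, adjusted p = 0.41). Leaving out RA 42 h replicate 3 or RA 78 h replicate 1 turned the sign of these values, to 0.041 and -0.107.

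Hoxc8 was lower with RA in some comparisons without passing the threshold. At 18 h its libraries held 0.541, 0.541 and 0.848 CPM without and 0.22, 0.37 and 0.346 CPM with RA, and at 54 h 2.19, 3.02 and 3.28 CPM without and 2.0, 0.754 and 1.36 CPM with RA. The groups did not overlap at either time. The log2 fold changes were -1.06 (SE 0.39, adjusted p = 0.033) and -1.09 (SE 0.32, adjusted p = 0.014), and at 78 h -0.87 (SE 0.40, adjusted p = 0.096). At 54 h DESeq2 (adjusted p = 0.0084) called Hoxc8 lower, as did edgeR with no filter on low counts (adjusted p = 8.3e-05) or without RA 54 h replicate 1 (adjusted p = 0.001). At 78 h edgeR called Hoxc8 (log2 fold change -1.64, adjusted p = 0.0013) and Hoxc9 (-1.85, adjusted p = 0.003) lower once RA replicate 1, their highest treated library, was left out.

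Hoxc9 was called lower with RA at 66 h by edgeR in the fit of the 6 libraries of that time. Its untreated libraries held 0.885, 1.77 and 0.802 CPM and its treated ones 0.335, 0.328 and 0.431 CPM. Although the groups did not overlap and the log2 fold change was -1.67 (SE 0.38, edgeR adjusted p = 0.0049), the call was lost without any 1 of the 3 treated libraries or without untreated replicate 2, with adjusted p-values of 0.011 to 0.024, and in 1 fit of all 45 libraries (adjusted p = 0.029). At 42 h Hoxc9 was at 0.313, 0.612 and 0.695 CPM without and 0.605, 0.499 and 0.476 CPM with RA, a log2 fold change of -0.06 (SE 0.38, adjusted p = 0.91) that turned positive in 3 of the fits with 1 library left out.

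Hoxd9 (chr2:74697727-74700208, plus strand), the 5′-most Hoxd gene of the set, reached a highest mean of 0.465 CPM and was never tested between arms because its counts were too low. At 42 h treated libraries held 14, 8 and 11 counts and untreated libraries 0, 5 and 0. The groups were apart, and the two-sided exact permutation test gave p = 0.1, the smallest value that 3 against 3 libraries allow. The groups were also apart, with p = 0.1 in the exact permutation test, at 30 h and 66 h with RA higher, and at 8 h. At 8 h treated libraries held 1, 1 and 0 counts and untreated libraries 1, 5 and 2, at or near the floor of 3 counts. The ratio of summed counts there was 0.229. Its exact 95% interval of 0.0237 to 1.15 covers counting error only, so no direction is read from it. At 18 h, 54 h and 78 h the groups overlapped.

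Hoxd4 (chr2:74711929-74729160, plus strand) was at 0 counts in each of the 45 libraries, which allows up to 3 counts or 0.0795 to 0.183 CPM per library for reads assigned to that row. Its paralogues reached mean levels of 22.2 CPM (Hoxc4), 11 CPM (Hoxa4) and 60.3 CPM (Hoxb4) with RA. The row has to be read against its gene model. In the GENCODE M21 annotation of GRCm38 its exons cover 2948 bases, of which 47.7% lie outside other genes on the same strand, and the rest are shared with Hoxd3 and with Gm28230, an annotated protein-coding gene that joins exons of both. Of the Gm28230 exons, 4.2% are unshared. How reads in shared exons were counted is not given in the sources used here, and the reason for the zeros was not tested.

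**Figure D3:**
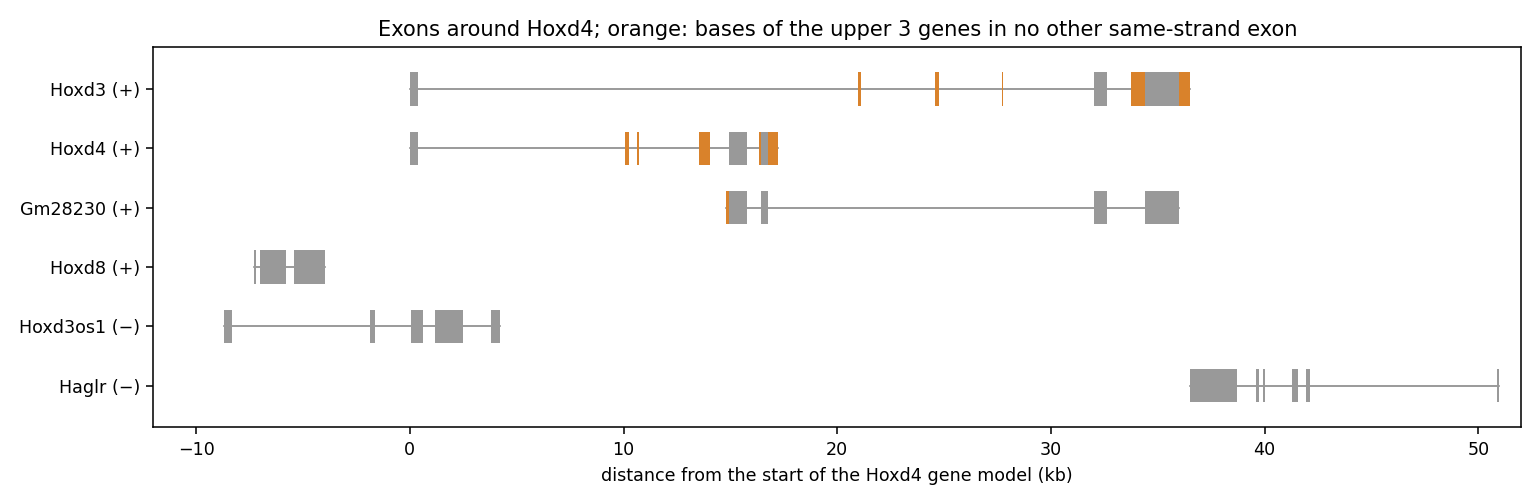
Merged exons of Hoxd3, Hoxd4, Gm28230 and 3 neighbouring genes by distance in kb from the start of the Hoxd4 gene model, with the strand in brackets. Grey boxes are exons and orange boxes the bases of the upper 3 genes in no other exon of their strand. Hoxd4 keeps 47.7% of its exon bases for itself, Hoxd3 37.7% and Gm28230 4.2%.

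Counted over the set, 0 of the 10 genes were called higher with RA at 8 h by edgeR (1.26% of the 15836 genes tested were), or by DESeq2, and 1 had an unadjusted p under 0.05. The number by edgeR was 4 of 10 at 18 h (8.17% of all genes tested) and at 30 h (5.98%), and 5 of 10 at 42 h (7.49%), 54 h (7.17%), 66 h (7.06%) and 78 h (7.66%). In the other direction 1 of 10 was called at 66 h (4.44% of all genes tested) and 0 of 10 at 8 h (0.537%), 18 h (2.76%), 30 h (2.48%), 42 h (4.96%), 54 h (5.99%) and 78 h (4.03%). Counting every adjusted p below 0.05 whatever the fold gave 1 higher at 8 h (5.96%), 1 lower at 18 h (26.1%) and 1 lower at 54 h (24.7%). Only 2 of the 10 genes had enough counts to be tested at 8 h, 5 at 18 h and 30 h and 8 later on. Some were tested only because they are high with RA, and so the counts are given out of all 10. Here and below, shares of all genes belong to edgeR calls in the main fits, or to the looser rule where named. No share is given for counts by unadjusted p, by DESeq2 or in other fits, so these cannot be set against the shares.

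The size of the RA effect was not shown to differ between 18 h and 78 h. In a test of the interaction of RA and time over 12 libraries, 0 of 8 tested genes passed by edgeR or by DESeq2. By edgeR 13.1% of all genes tested passed with a larger and 14.8% with a smaller effect at 78 h. At an unadjusted p under 0.05 there were 2 of the genes with a larger and 1 with a smaller effect, for which no share is given. The difference in log2 was 1.91 (SE 0.89, adjusted p = 0.10) for Hoxd3, 1.46 (SE 0.65, adjusted p = 0.085) for Hoxc5 and -0.98 (SE 0.44, adjusted p = 0.085) for Hoxc4.

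Within the RA arm, compared with day 2 in a fit of 24 libraries, the number of genes called higher was 1 of 10 at 8 h (4.27% of all genes tested), 4 at 18 h (12.7%), 6 at 30 h (17.8%), 9 at 42 h (18.0%) and 54 h (18.9%), 7 at 66 h (19.3%) and 9 at 78 h (20.3%). The 1 gene at 8 h was Hoxc4, whose log2 fold change was 2.74 (SE 0.61, adjusted p = 0.0019). That call was lost without RA 8 h replicate 1 (adjusted p = 0.019). The calls of Hoxc8, Hoxc9 and Hoxd9 against day 2 rested on few counts and were lost in several fits with 1 library left out. With any 1 library left out the count was 5 or 6 at 30 h, 7 or 8 at 42 h, 6 to 9 at 54 h, 6 or 7 at 66 h and 6 to 9 at 78 h. Hoxc8 lost its call at all 4 times from 42 h on without any 1 of the day 2 libraries. Hoxc9 and Hoxd9 lost theirs at 78 h without RA replicate 1, which also cost that of Hoxc8.

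From 18 h to 42 h of RA, 5 of the 10 genes were called higher (5.15% of all genes tested). Hoxd3 rose most, by 4.56 in log2 (SE 0.22, adjusted p = 1.3e-11), followed by Hoxc5 with 2.50 (SE 0.26), Hoxd8 with 2.38 (SE 0.62), Hoxc6 with 2.33 (SE 0.45) and Hoxc4 with 1.76 (SE 0.25). When both times were fitted on their own 6 libraries the number was 8, and DESeq2 called 7. The call of Hoxd8 was lost without RA 18 h replicate 1 or 3 or RA 42 h replicate 1, with adjusted p-values of 0.013 to 0.029. From 42 h to 78 h, 0 were called in either direction by edgeR, where 3.34% of all genes tested were higher and 1.94% lower. By unadjusted p under 0.05, 2 were higher and 1 lower, and DESeq2 called 1 lower. In edgeR Hoxd1 had a log2 difference of -1.19 (SE 0.36, adjusted p = 0.022). All libraries of 42 h were of the earlier and all of 78 h of the later number series, so that time and series cannot be told apart there.

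Without RA, 0 of the 10 genes were called higher than at day 2 at 8 h, 18 h or 30 h, by edgeR or by DESeq2. By edgeR 0.5%, 3.49% and 11.6% of all genes tested were. The number of the 10 with an unadjusted edgeR p under 0.05 was 1, 4 and 0 in turn, for which no share of all genes is given. At 42 h, 6 were called (13.5%), and 6 again at 54 h (14.9%), 66 h (17.6%) and 78 h (19.4%). At 42 h Hoxc6 and Hoxc8 had log2 fold changes of 4.25 (SE 0.58, adjusted p = 3.7e-07) and 2.81 (SE 0.38, adjusted p = 2.9e-07), beside 4.02 (SE 0.83) for Hoxc9 and 3.00 (SE 0.53) for Hoxc4. Hoxd1 (1.87, SE 0.55, adjusted p = 0.0041) and Hoxd3 (5.35, SE 1.55, adjusted p = 0.004) were called too, and lost the call when day 2 replicate 1 or 3, among other single libraries, was left out. The Hoxd3 value is set against 0 counts at day 2, so its size depends on the prior count. Against the floor of 3 counts per library at day 2, Hoxd3 was at least 1.39-fold higher at 42 h without RA. Hoxc5 was called from 54 h on, with 4.14 (SE 0.87, adjusted p = 1.5e-04) there. With only the 6 libraries of 42 h and day 2 fitted, the number was 3. Hoxd4, Hoxd8 and Hoxd9 had too few counts to be tested in the edgeR fit of this arm, whereas in that of the RA arm only Hoxd4 was untested. The numbers called in the 2 arms are therefore not alike. For Hoxd8 the ratio of summed counts at 66 h without RA over day 2 was 10.2, with an exact 95% interval of 2.59 to 88.1 for counting error only. Its groups were apart there and overlapped at 54 h and 78 h. The RA and the untreated arm are compared with the same 3 day 2 libraries. All libraries of 66 h and 78 h are of the later series and day 2 is mostly of the earlier one, and time and series cannot be told apart there.

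The hour at which the RA arm first reached 50% of a gene's highest mean was read off between time points. It was 18.7 h for Hoxd1, 24.2 h for Hoxc4, 27.4 h for Hoxc5, 30.6 h for Hoxd8, 34.8 h for Hoxc8, 36.3 h for Hoxd3 and 41.8 h for Hoxc6, the 7 genes whose mean reached 1 CPM. Courses built from libraries with the same replicate number gave an SD of 2.48 h for Hoxd1, 5.03 h for Hoxc4, 3.83 h for Hoxc5, 7.44 h for Hoxd8, 3.09 h for Hoxc8, 1.29 h for Hoxd3 and 14.5 h for Hoxc6. All 3 Hoxd1 courses crossed before the first Hoxc4 course, at 15.9 to 20.7 h against 22.6 to 31.9 h. From Hoxc4 on, the courses of genes next to each other in this order overlapped, and so did those of Hoxd8 (22.3 to 35.4 h) with all of Hoxc4, Hoxc5 and Hoxc8. Replicate numbers do not tie libraries of different times together, so the courses serve only to show the spread. The hour of 50% depends on a gene's later highest level and is not the hour of onset. Against day 2, Hoxc4 was called higher with RA from 8 h on, though the call at 8 h was lost without RA replicate 1. Hoxd1 was called from 18 h on. At 8 h the mean of Hoxc4 was 0.8 CPM with RA and 0.0984 CPM without, and that of Hoxd1 0.314 and 0.326 CPM.

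**Figure D4:**
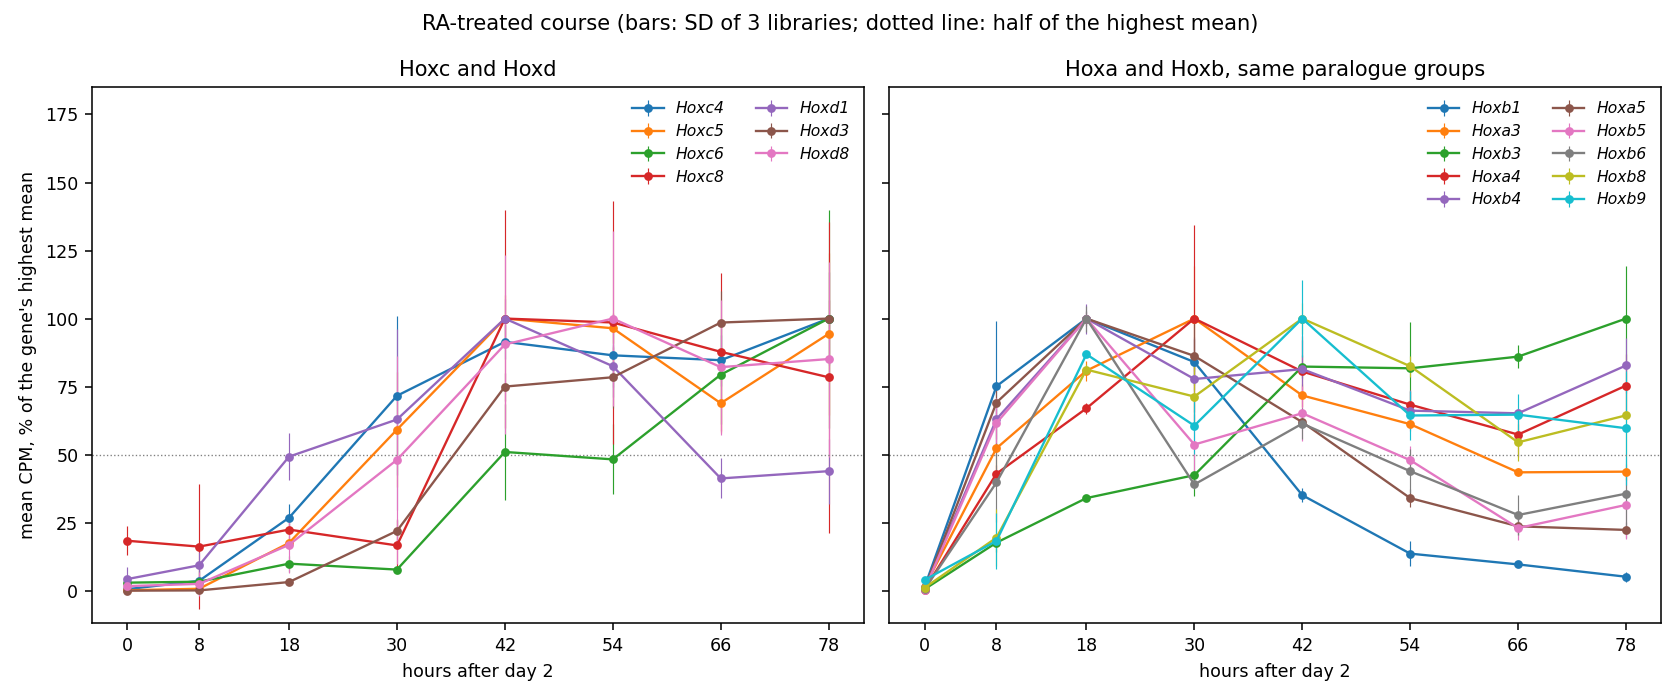
Mean CPM in the RA arm as a percentage of each gene's highest mean, against hours after day 2, for the 7 Hoxc and Hoxd genes (left) and the 10 Hoxa and Hoxb paralogues (right) that reached a mean of 1 CPM. Bars are the SD of 3 libraries, and the dotted line marks 50%. The left curves cross it between 18.7 h and 41.8 h and the right ones between 5.27 h and 32.3 h.

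The Hoxa and Hoxb genes of the same paralogue groups mostly reached this mark sooner. Of 12 such genes, 10 reached 1 CPM, and their hour of 50% ran from 5.27 h to 32.3 h with a median of 8.65 h, against a median of 30.6 h for the 7 Hoxc and Hoxd genes. Hoxb3, at 32.3 h, was the latest and lay inside the Hoxc and Hoxd range, and Hoxb1 was the earliest. These hours are descriptions and were not tested. Against untreated organoids, 9 of the 12 paralogues were called higher with RA at 8 h and 11 at 18 h, at times when 0 and 4 of the 10 Hoxc and Hoxd genes were. Of all genes tested, 1.26% and 8.17% were. Most of the 10 at 8 h, and some at 18 h, had too few counts to be tested, so these numbers also reflect level. From 42 h to 78 h of RA, 3 of the 12 paralogues were called lower, where 1.94% of all genes tested were. Hoxc4 went from 5.95 ± 1.16 CPM at 18 h to 22.2 ± 3.80 CPM at 78 h (SD, n = 3). The RA effect was smaller at 78 h than at 18 h for 10 of the 12 paralogues by the interaction test, where 14.8% of all genes tested passed in this direction. The sets were not compared by a test.

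Over the means of the 15 conditions, the genes fell into 2 patterns, described here by Pearson correlations of log2(CPM + 0.1). Hoxd3 and Hoxd8 had r = 0.987, Hoxc5 and Hoxd3 r = 0.975 and Hoxc4 and Hoxc5 r = 0.964. Hoxc8 and Hoxc9 had r = 0.925, Hoxc6 and Hoxc9 r = 0.922 and Hoxc6 and Hoxc8 r = 0.91. Between the patterns the values were lower, down to r = 0.18 for Hoxc8 and Hoxd1. All genes share the same libraries, and the conditions share time and RA, so that these values carry no test.

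A mean course was taken over the members whose mean reached 1 CPM in some condition, which leaves out Hoxd4 and Hoxd9 and mixes both patterns. Among 16013 genes reaching 1 CPM, those most like it over the 15 conditions were Lrrc73 (r = 0.98), Pdzrn3 (r = 0.978), P3h2 and Nedd9 (both r = 0.976), Aldh1a7 (r = 0.973), Fam171a1 (r = 0.972), and Ttc9 and Itga8 (both r = 0.971). Hoxd8 itself had r = 0.944 with that mean course and Hoxc8 r = 0.646. With a pseudocount of 1 in place of 0.1 CPM, 6 of these 8 were still among the first 8.

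The neighbours on the posterior side were low, and their summed level was lower from 42 h on than at day 2. It was 3.11 to 4.68 CPM at day 2. From 42 h to 78 h it was 0.637 to 1.72 CPM without and 0.578 to 2.0 CPM with RA. Of the 8 posterior genes Hoxc10 to Hoxc13 and Hoxd10 to Hoxd13, Hoxd13 had the highest mean, 3.24 CPM, and 6 had means of at most 0.148 CPM in every condition. With 1 or 2 of them tested, edgeR called 0 higher with RA at any of the 7 times (1 had an unadjusted p under 0.05, at 30 h), and Hoxd13 was called lower at 18 h (log2 fold change -1.25, SE 0.25, adjusted p = 9.9e-04). Of the 4 protein-coding genes flanking the clusters, 3 were tested and 0 called by edgeR at any time, with at most 2 at an unadjusted p under 0.05 in 1 direction.

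Cofactor genes, whose proteins bind DNA with Hox proteins, and the Cdx regulators of posterior Hox genes made a list of 12, of which 11 were tested. With RA, 3 were called higher at 8 h (1.26% of all genes tested), 7 at 18 h (8.17%), 6 at 30 h (5.98%) and 5 at 42 h (7.49%). The number was 2 each at 54 h (7.17%), 66 h (7.06%) and 78 h (7.66%), and 1 was lower at 42 h (4.96%) and 54 h (5.99%). Meis1, a Hox cofactor, had a log2 fold change of 4.91 (SE 0.12, adjusted p = 6.1e-12) at 18 h and Cdx1 one of 5.55 (SE 0.14, adjusted p = 6.6e-12). Of 8 genes that answer to RA, among them the RA-degrading Cyp26 enzymes, 5 were higher at 8 h (1.26% of all genes tested) and 8 at 18 h (8.17%). By 78 h only Rarb, an RA receptor gene, was still higher (log2 fold change 3.98, SE 0.14) while Cyp26b1 (-4.71, SE 0.24) and Cyp26c1 (-4.14, SE 0.31) were lower. Of all genes tested at 78 h, 7.66% were higher and 4.03% lower.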

How the data were processed

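RNA sequencing counts of 45 libraries were used. Per the labels and the study's methods, the authors trimmed reads (Trim Galore 0.5.0), removed abundant sequences (Bowtie2 2.3.4.1), aligned the rest to GRCm38 with STAR and counted them per gene with featureCounts (Subread 1.6.2). They deposited raw read counts, neither normalized nor pooled. The library kit keeps strand, but the strand setting and the treatment of reads shared by several genes or places are not given in the sources used here, so overlapping, antisense and near-identical genes may share or lose counts. Columns were matched to samples by library number. Of 54532 identifiers, 54495 were placed on GRCm38 with GENCODE M21, which may differ from the authors' annotation.

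Counts were tested with edgeR 4.0.16 (R 4.3.3, TMM, filterByExpr with minimum count 10 and minimum total 15, glmQLFit, glmQLFTest) and called where the p adjusted by Benjamini-Hochberg over all genes tested was under 0.01, with a log2 fold change above 1 in size, except that the interaction had no minimum fold. RA and untreated libraries were compared in fits of 6 libraries per time, each arm with day 2 in fits of 24, and the interaction in a fit of 12. A standard error is the log2 fold change divided by the square root of F. CPM was scaled by TMM over all libraries. Intervals and floors cover counting error only, since the reads carry no molecular identifiers.

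The members and lists were chosen with earlier results of these data known. Named were all 10 members, the other genes of both loci, the paralogues, 2 lists of regulators and RA response genes, and the 8 most alike genes. 1 gene of the paralogue list is not reported here. Alternatives were RLE size factors, no filter, DESeq2 1.42.0, a replicate block, other groupings of libraries into fits, the earlier number series only at 30 h, an adjusted p under 0.05 with no minimum fold, and each library left out.

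Same-numbered libraries were checked for pairing. At 66 h the deviations of each pair from the group means correlated above 0.1 (r = 0.434, 0.149 and 0.195), so the numbers were taken to pair them, from the data and not the labels. The block changed no call there. Replicates were separate libraries, since the chi-square averaged over genes was 1.92 or more in all 45 pairs. On simulated counts edgeR recovered 94.4% of genes changed by a log2 fold of 2 and 97.8% at 3 for RA against untreated at 18 h among 16508 genes, with 0 false calls. For RA 42 h against day 2 it recovered 84.9% and 87.2%, with 1 false call. For the interaction it recovered 82.1% and 87.5%, with 0 false calls. The changed genes were drawn from all that passed the filter, so recovery at the low counts of many members is not shown.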

Additional observations from a re-analysis of the deposited data

Results flagged for a closer look

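Noncoding and read-through rows of the Hoxd locus, which take no part in the comparisons of the 10 genes, also carried a signal above the untreated libraries. At 78 h, Haglr, an antisense RNA that starts next to Hoxd1, had 1.5 ± 0.299 CPM with RA and 0.223 ± 0.0427 CPM without (SD, n = 3), a log2 fold change of 2.73 (SE 0.31, edgeR adjusted p = 3.1e-05). Gm28230, which joins exons of Hoxd4 and Hoxd3, had a log2 fold change of 3.16 (SE 0.49, adjusted p = 2.9e-04), and Gm14424, which overlaps Haglr on the opposite strand, one of 4.59 (SE 0.62, adjusted p = 1.2e-04). As 4.2% of the Gm28230 exon bases are unshared, reads of Gm28230 and of Hoxd3 or Hoxd4 cannot be told apart, while 90.7% of the Haglr and 70.9% of the Gm14424 exon bases lie in no other gene on either strand.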

How the results depend on the processing

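Of 254 counts of called genes recomputed under other settings, 240 stayed within 1.5 times, and of 638 values of single genes 622 kept their direction and side of the threshold. In the fit of all 45 libraries the count higher with RA at 8 h was 1 and that lower at 66 h was 0. Counting every adjusted p below 0.05 whatever the fold, 1 was higher at 8 h, 1 lower at 18 h and 1 lower at 54 h. Without a filter, 1 was lower at 54 h, 1 lower from 42 h to 78 h of RA, 2 higher in untreated organoids at 18 h against day 2 and 1 had a larger effect at 78 h than at 18 h. DESeq2 gave 1 lower at 54 h and 1 lower from 42 h to 78 h of RA. Separate fits of 6 libraries gave 8 higher from 18 h to 42 h of RA, 1 lower from 42 h to 78 h, and 3 higher in untreated organoids at 42 h. The cause was not tested.

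When single libraries were left out, the count higher with RA ran from 0 to 1 at 8 h (1 without RA replicate 3), and the count lower from 0 to 1 at 54 h and 66 h and from 0 to 2 at 78 h. Against day 2 it ran from 0 to 1 for RA at 8 h and for untreated organoids at 18 h (1 without untreated replicate 1). The log2 fold change changed sign for Hoxc6 at 42 h (-0.482 to 0.041) and 78 h (-0.107 to 0.48) and for Hoxc9 at 42 h (-0.337 to 0.156). Other settings gave no value for 15 values of the genes, which they filtered out.

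With the replicate number as a block, the counts higher with RA were 0, 4, 4, 5, 5, 5 and 5 from 8 h to 78 h, as without it, and all 48 counts stayed within 1.5 times. The 1 call of 118 that changed was Hoxc8 at 78 h of RA against day 2 (2.08, edgeR adjusted p = 0.013). Apart from 66 h, same-numbered treated and untreated libraries did not all correlate above 0.1, with values of -0.315 to 0.283. Hoxd9 had at most 22 counts and Hoxc9 before 42 h at most 18 counts per library, which limits the precision of their values.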
